A study of Homo sapiens with 9 samples.

Results

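The genes described are 10 regulators of the mitochondrial pathway of apoptosis that belong to the BCL2 family, chosen by gene name and function. They are 5 BH3-only genes (BCL2L11, BMF, PMAIP1, BBC3 and BAD), 2 effector genes (BAX and BAK1) and 3 anti-apoptotic genes (BCL2, BCL2L1 and MCL1), and all 10 were found among the 58735 genes of the count table. RNA-Seq was performed on MIA PaCa-2, an established pancreatic cancer cell line whose genotype the labels give as WT. Cells in every group came from this one line and were harvested after 24 h. In 3 libraries the cells had received 0.1% DMSO (dimethyl sulfoxide, the vehicle), in 3 libraries 1 μM compound 1, an inhibitor of the kinases TBK1 and IKKε, and in 3 libraries 1 μM SCH772984, an inhibitor of the kinases ERK1/2. The comparisons ask which of these genes responded to either kinase inhibitor and whether the inhibitors differed.

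BCL2 family proteins decide whether the outer mitochondrial membrane is opened. BAX and BAK, the effectors, form the pores that release cytochrome c and start the caspases, while the anti-apoptotic proteins BCL-2, BCL-XL (from BCL2L1) and MCL-1 bind and restrain them. BH3-only proteins sense stress and either block the anti-apoptotic proteins or activate the effectors. ERK is known to phosphorylate BIM (from BCL2L11) and so to mark it for degradation, a step at the protein level that RNA counts do not measure.

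Library totals were 9464432 to 10286223 counts with DMSO, 9652741 to 9840769 with compound 1 and 11056977 to 13887859 with SCH772984. Levels are given in CPM, the count of a gene scaled to a common library total, after TMM scaling, which sets the bulk of genes level between libraries. Replicate 1 with compound 1 stood apart from its group. Its counts differed from those of replicates 2 and 3 with a chi-square per degree of freedom of 10.1 and 7.61, against 2.66 between replicates 2 and 3. Mitochondrially encoded genes took 6.23% to 7.52% of the counts with SCH772984 and 3.33% to 3.98% with DMSO, and the part of this in the results below was not tested. For the labelled cell type, the epithelial keratins KRT8, KRT18 and KRT19 had at least 1840 counts in every library. EPCAM had 0 counts and CDH1 at most 5, so these defining epithelial genes were absent or near 0. Of the mesenchymal genes, VIM had 21970 counts or more and ZEB1 244 to 396, while CDH2 had at most 1, and VIM and ZEB1 were lower with SCH772984 (log2 fold change -0.23 and -0.61). With SCH772984 KRT8 fell from 2488 ± 71.0 to 771 ± 47.3 CPM (SD, n = 3) and KRT18 from 879 ± 46.3 to 167 ± 10.4 CPM, while MUC1 rose from 4.61 ± 0.847 to 31.3 ± 8.15 CPM and KRT19 was 252 ± 25.8 and 272 ± 19.2 CPM and did not pass. Of the 5 epithelial markers tested, 1 was higher and 3 lower (edgeR, adjusted p under 0.05), against 37.2% and 35.5% of all genes tested. The median log2 fold change of the 5 was -1.18, and the part of this in the results below was not tested either. All 8 markers of leukocytes, endothelium, fibroblasts and acinar cells had at most 1 count in any library. The labels do not say whether the 3 libraries of a group came from separate cultures, so p-values measure the spread between these libraries, which may be technical.

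With SCH772984, all 10 genes were tested and all 10 passed the test, 4 higher and 6 lower. The 4 that rose were BH3-only genes, and the fifth BH3-only gene, PMAIP1, fell together with both effectors and all 3 anti-apoptotic genes. A gene passed when its edgeR quasi-likelihood test gave a Benjamini-Hochberg adjusted p under 0.05 over all genes tested. By this rule 72.8% of all 13834 genes tested passed, 37.2% higher and 35.5% lower, so the number of members that passed is not unusual in this comparison. In 9 of the 10 genes the SCH772984 and DMSO libraries did not overlap in CPM, which was true of 74.4% of all genes. The changes are relative to the bulk of genes, whose median log2 fold change was 0.03. With scaling by library size alone that median was 0.20, and 6242 genes were higher and 3911 lower in place of 5150 and 4916, yet the same number of members, 4 and 6, passed in each direction. In bulk RNA, fewer cells that express a gene and less RNA per cell cannot be told apart.

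BMF (ENSG00000104081, chromosome 15, positions 40087890 to 40108892, minus strand, GRCh38) had the largest change of the 10 genes. Its protein is a BH3-only sensor tethered to the actin and myosin cytoskeleton until released. The BMF count was 7, 2 and 5 in the DMSO libraries and 106, 142 and 183 with SCH772984, and in CPM these were 0.717, 0.221 and 0.546 against 8.79, 12.0 and 12.2. The gene thus went from close to the detection limit to a clear signal in every treated library. The log2 fold change was 4.46 (SE 0.30), a 22.0-fold rise with a 95% confidence interval of 14.4 to 33.5 (edgeR quasi-likelihood test, adjusted p = 1.37e-17). It ranked 99th from the top of the 13834 genes by log2 fold change. BMF passed the filter on low counts only through the SCH772984 libraries, where it is high, so that a difference was bound to be found among the genes let in this way, and its fold rests on DMSO counts of 2 to 7.

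BCL2L11 (ENSG00000153094, chromosome 2, positions 111119378 to 111168447, plus strand), which encodes BIM, a protein that binds every anti-apoptotic member and also activates the effectors, was 21.2, 21.8 and 22.4 CPM with DMSO. With SCH772984 it was 44.5, 47.5 and 44.7 CPM, and the groups were far apart compared with the spread inside each. The rise was 2.08-fold, with a log2 fold change of 1.06 (SE 0.09, edgeR adjusted p = 1.27e-13). BBC3 (ENSG00000105327, chromosome 19, positions 47220822 to 47232766, minus strand) encodes PUMA, a potent BH3-only protein. It was 5.43, 4.74 and 4.59 CPM with DMSO and 9.54, 10.7 and 10.6 CPM with SCH772984. Its rise was the same size as that of BCL2L11, 2.08-fold, with a larger error at the lower count (log2 fold change 1.06, SE 0.18, edgeR adjusted p = 1.37e-06). BCL2L11 shares 727 exon bases, 10.9% of its own, with the antisense RNA gene MIR4435-2HG, and whether counting used the strand is not given in the sources used here. MIR4435-2HG itself had 99 to 286 counts and moved in the opposite direction, with a log2 fold change of -1.57.

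BAD (ENSG00000002330, chromosome 11, positions 64269830 to 64284704, minus strand) encodes a BH3-only protein that growth factor signaling keeps phosphorylated and bound to 14-3-3 proteins. It was 9.62, 9.15 and 12.5 CPM with DMSO and 12.5, 10.7 and 17.9 CPM with SCH772984. The groups overlapped, and the highest value came from SCH772984 replicate 3. The log2 fold change was 0.40 (SE 0.17), which passed by a small margin (edgeR adjusted p = 0.0309). The call was lost without DMSO replicate 1 (adjusted p = 0.134), without DMSO replicate 2 (0.145) and without SCH772984 replicate 3, where the log2 fold change was 0.15 (0.443), and also with all 9 libraries in one edgeR fit (0.0605) and with DESeq2 (0.0784). BAD shares 404 exon bases, 23.7% of its own, with GPR137 on the other strand (log2 fold change 0.07), so its counts are uncertain.

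PMAIP1 (ENSG00000141682, chromosome 18, positions 59899948 to 59904306, plus strand) was the BH3-only gene that fell. It encodes NOXA, which binds MCL-1 and takes part in its degradation. PMAIP1 was 10.9, 8.38 and 8.42 CPM with DMSO and 3.40, 2.61 and 2.28 CPM with SCH772984, with no overlap. The fall was 3.38-fold, with a 95% confidence interval of 2.50 to 4.56 and a log2 fold change of -1.76 (SE 0.22, edgeR adjusted p = 9.25e-10).

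**Figure D1:**
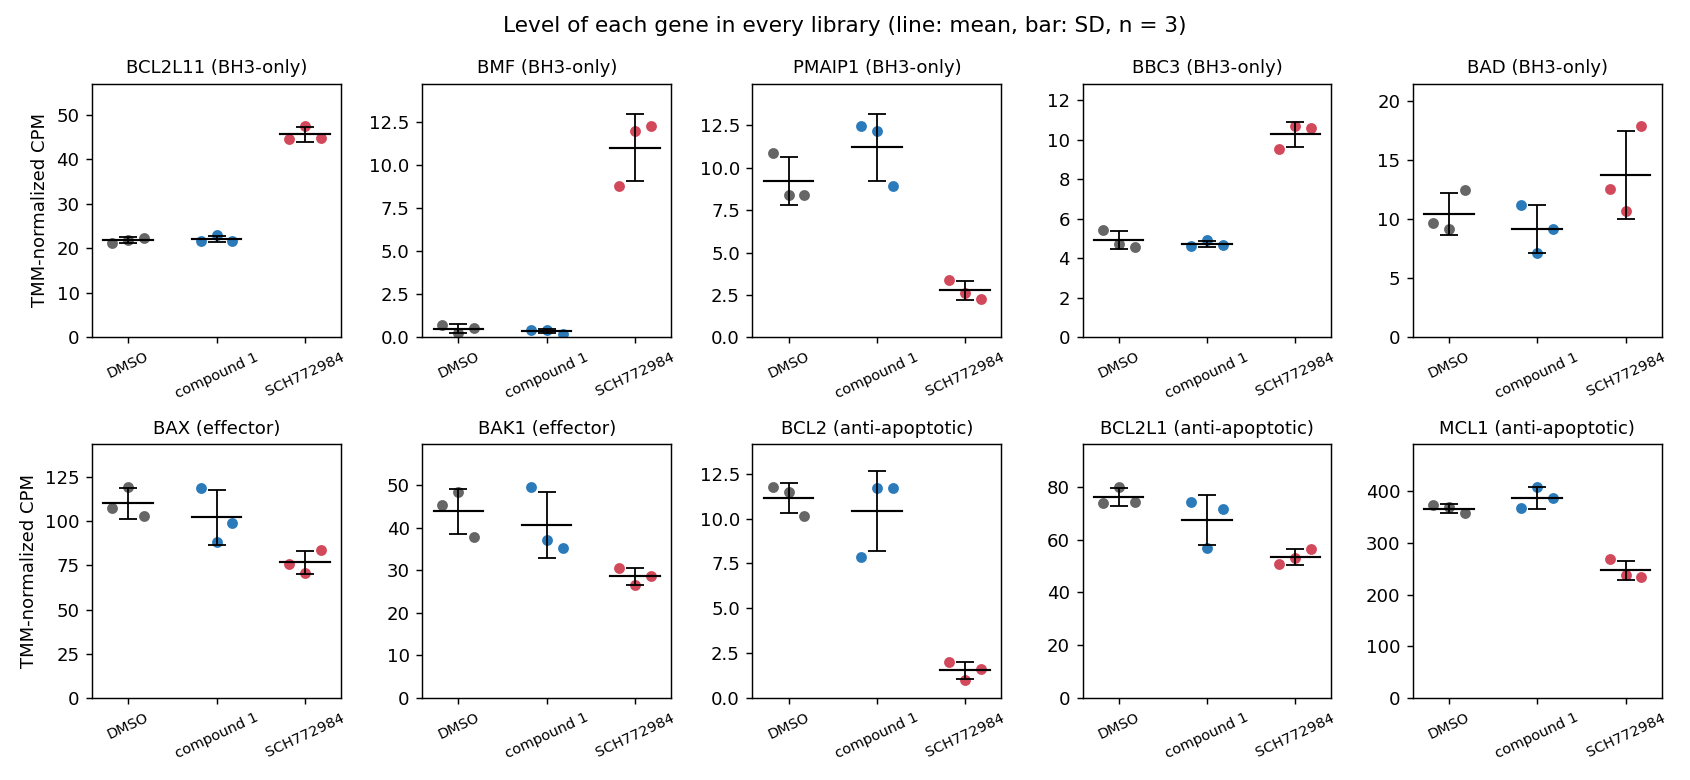
TMM-normalized CPM of each of the 10 genes in every library, 3 per group, with the mean as a line and the SD as a bar; each panel has its own linear axis from 0. BMF, BCL2L11 and BBC3 lie above every DMSO library with SCH772984, PMAIP1, BAX, BAK1, BCL2, BCL2L1 and MCL1 lie below, BAD overlaps, and compound 1 overlaps DMSO in all 10 panels.

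The 4 BH3-only genes whose groups did not overlap, 3 higher and 1 lower, are shown by the bases before their start site, since these are the genes that moved most within the class. Sequences are from RefSeq (GRCh38.p14), 5′ to 3′ on the strand of the gene, cut to the bases that lie outside annotated exons. Capitals mark matches, on either strand, to words bound by known factor classes: GTAAACA (FOXO), CACGTG (E-box), GGGCGG (GC box, CCGCCC on the other strand) and TGANTCA (AP-1). CCGGAAG (ETS) and TGACGTCA (CRE) were searched too and had no match in these 4 stretches. The stretches are chr2:111120664-111120913 on the plus strand for BCL2L11, chr15:40108893-40109129 on the minus strand for BMF, chr19:47232767-47232917 on the minus strand for BBC3 and chr18:59899746-59899947 on the plus strand for PMAIP1. The BCL2L11 stretch lies inside the annotated gene, downstream of its first annotated start.
BCL2L11: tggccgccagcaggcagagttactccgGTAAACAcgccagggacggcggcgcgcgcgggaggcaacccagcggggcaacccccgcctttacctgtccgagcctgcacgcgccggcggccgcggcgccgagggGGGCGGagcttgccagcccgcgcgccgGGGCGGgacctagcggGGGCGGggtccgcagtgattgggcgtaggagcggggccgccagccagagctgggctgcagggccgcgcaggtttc
BMF: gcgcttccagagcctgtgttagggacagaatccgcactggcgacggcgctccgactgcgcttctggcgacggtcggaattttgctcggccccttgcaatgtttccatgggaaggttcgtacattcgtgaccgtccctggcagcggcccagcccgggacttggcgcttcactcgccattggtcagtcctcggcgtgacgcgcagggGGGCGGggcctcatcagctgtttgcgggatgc
BBC3: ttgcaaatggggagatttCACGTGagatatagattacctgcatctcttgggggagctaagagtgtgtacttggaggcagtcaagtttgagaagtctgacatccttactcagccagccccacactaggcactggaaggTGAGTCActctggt
PMAIP1: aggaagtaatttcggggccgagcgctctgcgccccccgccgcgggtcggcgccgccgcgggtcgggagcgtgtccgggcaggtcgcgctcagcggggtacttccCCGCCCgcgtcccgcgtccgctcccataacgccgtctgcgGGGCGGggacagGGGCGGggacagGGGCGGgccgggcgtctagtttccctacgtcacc

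No word was shared by the 3 genes that rose. BCL2L11 held the FOXO word 223 bases before the start site, a word found in 3.42% of all 35116 promoter windows of the same table, which span 250 bases before to 50 after a start. BBC3 held an E-box word 232 bases before its start and an AP-1 word 113 bases before, found in 7.26% and 7.71% of windows. GC box words were present in BCL2L11 (3), BMF (1) and PMAIP1 (4), but 45.0% of all windows hold at least 1. BMF has a second RefSeq start in the table, at position 40106966, whose window is not shown and held none of the words searched. A match gives letters only and is not evidence of a bound site.

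The effector genes both fell with SCH772984. BAX (ENSG00000087088, chromosome 19, positions 48954815 to 48961798, plus strand) was 108, 119.5 and 103 CPM with DMSO and 75.7, 70.9 and 83.5 CPM with SCH772984. BAK1 (ENSG00000030110, chromosome 6, positions 33572547 to 33580293, minus strand) was 45.4, 48.3 and 37.9 CPM with DMSO and 30.4, 26.6 and 28.6 CPM with SCH772984. In both genes every treated library was below every DMSO library. The log2 fold change was -0.52 (SE 0.07, edgeR adjusted p = 3.69e-08) for BAX and -0.62 (SE 0.10, edgeR adjusted p = 1.93e-07) for BAK1. These are falls of 1.44-fold and 1.54-fold. With library size alone the BAX log2 fold change was -0.35, still past the threshold.

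Among the anti-apoptotic genes, BCL2 fell far more than the other two. BCL2 (ENSG00000171791, chromosome 18, positions 63123346 to 63320128, minus strand), the founding member of the family, had 115, 104 and 93 counts with DMSO and 24, 12 and 24 with SCH772984. In CPM it went from 11.8, 11.5 and 10.2 to 1.99, 1.01 and 1.61. No treated library came near a DMSO library. The fall was 7.25-fold, with a 95% confidence interval of 5.26 to 9.99 and a log2 fold change of -2.86 (SE 0.23, edgeR adjusted p = 4.40e-15). It ranked 69th from the bottom of the 13834 genes by log2 fold change.

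BCL2L1 (ENSG00000171552, chromosome 20, positions 31664452 to 31723989, minus strand) encodes BCL-XL, a membrane-bound guard against BAX and BAK. It was 74.0, 80.1 and 74.4 CPM with DMSO and 50.8, 52.9 and 56.6 CPM with SCH772984. MCL1 (ENSG00000143384, chromosome 1, positions 150574551 to 150579738, minus strand), which encodes a short-lived protein that binds BIM and NOXA, was 374, 369 and 358 CPM with DMSO and 269, 239 and 234 CPM with SCH772984. Neither gene overlapped between the groups. The log2 fold change was -0.51 (SE 0.08, edgeR adjusted p = 1.10e-07) for BCL2L1 and -0.58 (SE 0.06, edgeR adjusted p = 3.44e-11) for MCL1, or 1.43-fold and 1.49-fold lower. With library size alone the BCL2L1 log2 fold change was -0.34, still past the threshold. BCL2L1 and MCL1 are spliced into forms of opposite function, and counts per gene do not separate them. BCL2L1 shares 1424 exon bases, 43.0% of its own, with the antisense gene ABALON, which had 3 to 12 counts. As the strand setting is not given, the counts of BCL2L1 are uncertain too.

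**Figure D2:**
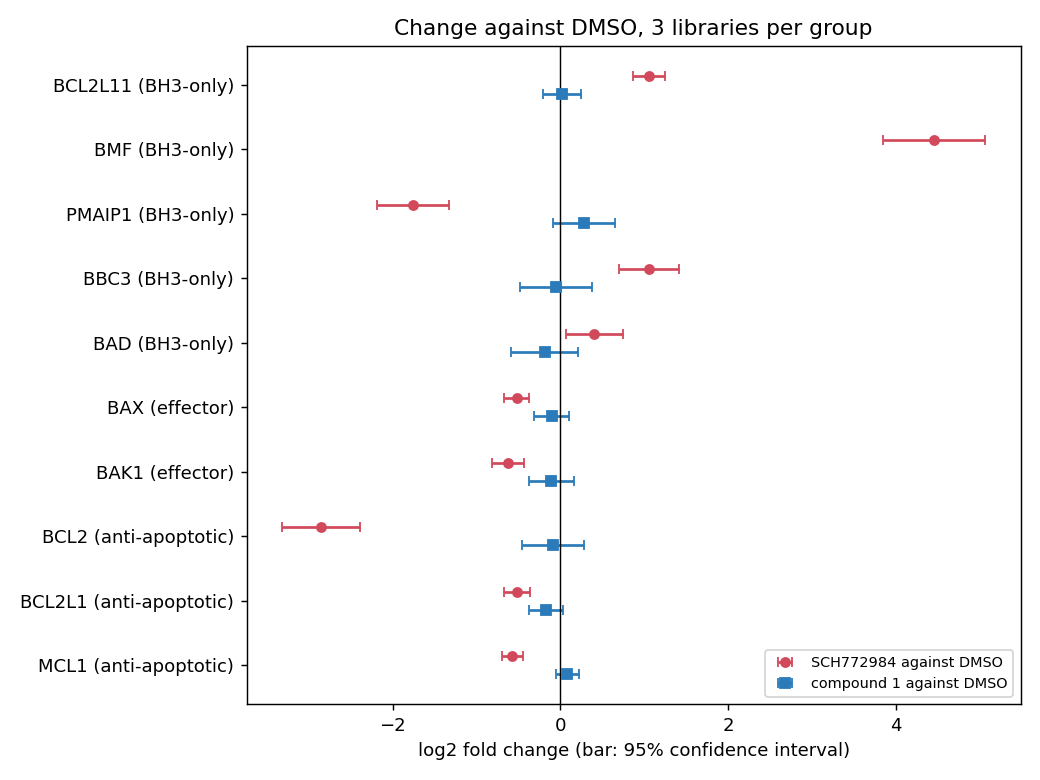
log2 fold change against DMSO (horizontal axis) of each gene with SCH772984 (circles) and compound 1 (squares), with 95% confidence intervals, 3 libraries per group and the same DMSO libraries in both. With SCH772984 the values run from -2.86 (BCL2) to 4.46 (BMF) and no interval spans 0, while every compound 1 interval spans 0 and BMF has no compound 1 value because it was under the filter on low counts.

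With compound 1, none of the 9 genes tested passed (edgeR quasi-likelihood test, Benjamini-Hochberg adjusted p under 0.05), and 0 of the 9 had an unadjusted p under 0.05. In this comparison 0.864% of the 12849 genes tested passed, 63 higher and 48 lower (85 and 25 with library size alone), and 15% had an unadjusted p under 0.05. DESeq2 also called 0 members. The compound 1 and DMSO libraries overlapped in CPM for all 10 genes, against no overlap in 20.9% of genes tested. Both inhibitors were compared with the same 3 DMSO libraries.

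The intervals limit how large a change could have gone unseen. MCL1 was 367, 409 and 387 CPM with compound 1, with a log2 fold change of 0.08 and a 95% confidence interval of -0.06 to 0.22. BCL2L11 was 21.6, 22.9 and 21.7 CPM, and its interval was -0.21 to 0.25 around 0.02. PMAIP1 was 12.5, 12.2 and 8.92 CPM, and its log2 fold change of 0.28 was the largest of the 9, with an interval of -0.09 to 0.65. BCL2 was 7.84, 11.7 and 11.7 CPM, its lowest value in replicate 1, with a log2 fold change of -0.09 (-0.46 to 0.28). The log2 fold changes of BCL2L11, PMAIP1 and BCL2 with SCH772984 (1.06, -1.76 and -2.86) lie outside these intervals. For BBC3 the log2 fold change was -0.05 (-0.48 to 0.37). The interval of BAD reached furthest below 0, at -0.59 to 0.21 around -0.19, and leaving out 1 library gave log2 fold changes from -0.35 (without compound 1 replicate 1) to -0.04 (without DMSO replicate 3).

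The effectors and BCL2L1 were lower at the mean but did not pass. BAX was 119, 88.3 and 99.2 CPM with compound 1, with a log2 fold change of -0.11 (-0.31 to 0.10), BAK1 was 49.6, 37.1 and 35.3 CPM (-0.11, -0.37 to 0.16), and BCL2L1 was 74.4, 56.7 and 71.6 CPM (-0.17, -0.38 to 0.04). BAX and BAK1 were highest in replicate 1, the library that stood apart from its group. Without that library BAX passed the test, with a log2 fold change of -0.22 (edgeR adjusted p = 0.0361), while BCL2L1 (-0.24, edgeR adjusted p = 0.0530) and BAK1 (-0.27, edgeR adjusted p = 0.0662) did not. Other libraries moved these values the other way, to -0.017 for BAX and -0.065 for BCL2L1 without compound 1 replicate 2 and to -0.017 for BAK1 without compound 1 replicate 3. Over the whole table, 453 genes were higher and 798 lower without compound 1 replicate 1. BMF had 4, 4 and 2 counts with compound 1 and was too low for the test; without a filter on low counts its edgeR adjusted p was 0.806.

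The inhibitors were also compared directly, at the same dose and time. All 10 genes passed, 4 higher and 6 lower with SCH772984, where 66.3% of 13863 genes passed, 33.7% higher and 32.6% lower. BMF is among the 4 higher but had 2 to 4 counts with compound 1 and again passed the filter only through the SCH772984 libraries. The log2 fold change of SCH772984 against compound 1 was 4.98 for BMF, 1.12 for BBC3 and 1.05 for BCL2L11. On the lower side it was -2.76 for BCL2, -2.03 for PMAIP1, -0.65 for MCL1, -0.51 for BAK1 and -0.41 for BAX. Each of these 8 genes had an edgeR adjusted p of 0.00193 or lower. The 3 SCH772984 libraries are the same as in the comparison with DMSO. Without compound 1 replicate 1 the counts were again 4 higher and 6 lower. BAD was 0.60 higher on the log2 scale (edgeR adjusted p = 0.0107) and lost the call without SCH772984 replicate 3 (0.35, edgeR adjusted p = 0.134) or compound 1 replicate 2 (0.44, edgeR adjusted p = 0.0593). BCL2L1 was at -0.34 (edgeR adjusted p = 0.00869) and lost the call with library size alone (-0.20, edgeR adjusted p = 0.104). With library size alone BAX was at -0.27, still past the threshold.

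Levels of different genes were compared per kilobase of gene length (CPM per kb). With DMSO the order was MCL1 (84.0), BAX (42.5), BCL2L1 (23.0), BAK1 (19.8), BAD (6.10), PMAIP1 (4.12), BCL2L11 (3.28), BBC3 (1.55), BCL2 (0.947) and BMF (0.0908), and no neighbours in this order overlapped between libraries. By this measure the transcripts of MCL1 and BAX were the most abundant and those of BCL2 and BMF the least. The length used covers all annotated exons of a gene, for BAX 2587 bases over 13 transcripts, and not the form expressed. The order could change with the length of the expressed form, and the class shares and ratio values below use the same lengths. With compound 1 the order was the same, but BCL2L1 overlapped BAK1 and BAD overlapped PMAIP1. With SCH772984 the first 5 places were the same, from MCL1 at 56.5 to BAD at 8.02 CPM per kb. BCL2L11 (6.84) followed and overlapped BAD, then BBC3 (3.23), BMF (2.02), PMAIP1 (1.24) and BCL2 (0.131). PMAIP1 dropped from sixth to ninth place and BMF rose from the tenth to the eighth.

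Summed over each class, BH3-only transcripts were 15.1 ± 1.08 CPM per kb with DMSO (SD, n = 3), 15.2 ± 1.48 with compound 1 and 21.3 ± 2.10 with SCH772984. The effector sum was 62.4 ± 5.54, 57.9 ± 9.30 and 42.6 ± 2.93 CPM per kb in the same order of groups, and the anti-apoptotic sum 107.9 ± 2.33, 110.0 ± 2.50 and 72.8 ± 3.67. As a share of all 10 genes, the BH3-only class went from 8.18% with DMSO to 15.6% with SCH772984, the effectors from 33.6% to 31.1% and the anti-apoptotic class from 58.2% to 53.3%. MCL1 made up 77.8% of the anti-apoptotic sum with DMSO and 77.6% with SCH772984, so this class was mostly MCL1 in both. The BH3-only class changed in makeup. PMAIP1 went from 27.3% to 5.88% of its class, BMF from 0.589% to 9.46% and BCL2L11 from 21.7% to 32.3%. BAD, whose own call was not stable, held 40.2% and 37.2%. These sums are descriptions and were not tested.

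**Figure D3:**
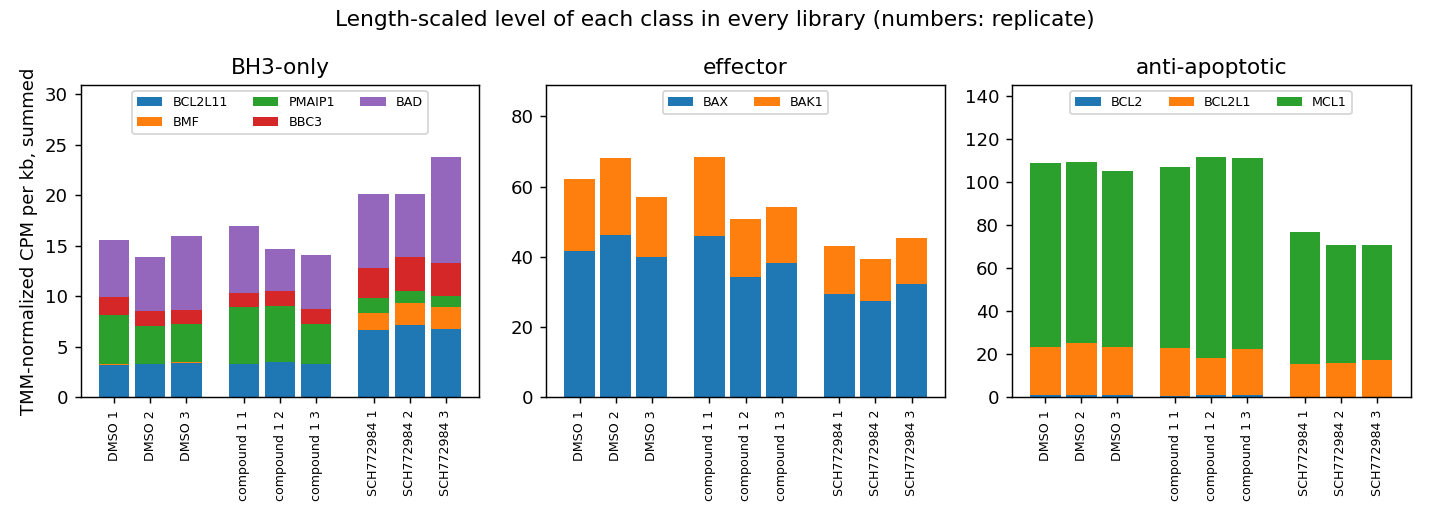
TMM-normalized CPM per kilobase summed over the genes of each class, as stacked bars with 1 bar per library on linear axes from 0 that differ between panels. The 3 SCH772984 bars are higher than the 6 others in the BH3-only panel, where the mean was 21.3 against 15.1 with DMSO, and lower in the effector and anti-apoptotic panels.

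Ratios of 2 genes within a library do not depend on the scaling between libraries. BCL2L11 per MCL1 was 0.0372 to 0.0411 with DMSO and 0.109 to 0.131 with SCH772984, 3.11-fold higher at the mean of the log2 ratio. BBC3 per BCL2L1 was 0.0617 to 0.0764 and 0.195 to 0.211, 2.98-fold higher. BAX per BCL2 was 41.5 to 47.4 and 173 to 319, which was 5.24-fold higher even though both genes fell. PMAIP1 per MCL1 was 0.0444 to 0.0567 and 0.0191 to 0.0247, 2.26-fold lower, and so went against the other BH3-only ratios. In all 4 ratios the groups did not overlap, and the two-sided exact permutation p was 0.1, the smallest that 3 against 3 libraries allows (0.2 after Benjamini-Hochberg adjustment over 8 tests). With 3 against 3 libraries this permutation test cannot reach 0.05.

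With compound 1 all 4 ratios overlapped those of DMSO. The log2 difference was -0.06 for BCL2L11 per MCL1, 0.20 for PMAIP1 per MCL1, 0.13 for BBC3 per BCL2L1 and 0.00 for BAX per BCL2, with exact permutation p from 0.2 to 1.0. BAX per BCL2 was 69.0 in replicate 1 and 34.4 and 38.5 in the other two compound 1 libraries, and without replicate 1 its log2 difference was -0.31.

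**Figure D4:**
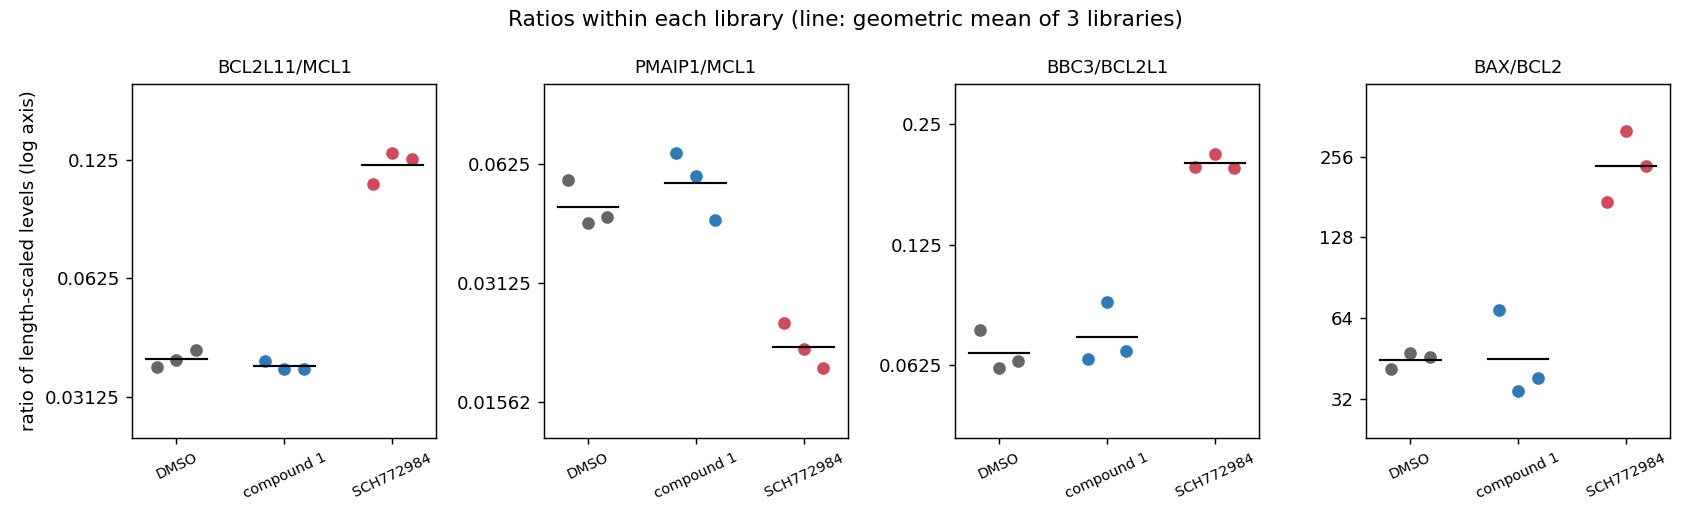
Ratios of length-scaled levels within each library on log axes, 3 libraries per group, with the geometric mean as a line. With SCH772984 BCL2L11/MCL1, BBC3/BCL2L1 and BAX/BCL2 lie above every DMSO library and PMAIP1/MCL1 lies below, by 3.11, 2.98, 5.24 and 2.26 fold, and compound 1 overlaps DMSO in all 4.

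Other BCL2 family genes that passed with SCH772984 were lower except BNIP3L, in a comparison where 72.8% of all genes tested passed. Of 4 further BH3-only and BNIP3-type genes tested, 1 was higher and 1 lower. BID, a BH3-only gene whose protein is cut by caspase-8, fell from 108 ± 6.39 to 50.0 ± 2.66 CPM (SD, n = 3), a log2 fold change of -1.12. BNIP3L, a mitophagy receptor, was higher by 0.26. BIK and BNIP3 did not pass, at 43 counts or fewer, and HRK was under the filter. The third effector gene, BOK, fell from 68.3 ± 5.14 to 42.8 ± 0.696 CPM, with a log2 fold change of -0.68, so all 3 genes of the effector type were lower. Among further anti-apoptotic genes BCL2L2 did not pass (-0.24, edgeR adjusted p = 0.0598), and BCL2A1 and BCL2L10 had 0 counts in every library, which allows up to 3 counts per library. BCL2L12 (-1.22) and BCL2L13 (-0.38), BCL2-like genes whose role in apoptosis is less settled, both fell. BID, BOK, BCL2L12 and BCL2L13 all had an edgeR adjusted p of 9.92e-06 or lower. With compound 1 none of these genes passed, where 0.864% of all genes tested did.

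Downstream of the BCL2 family, 13 genes of mitochondrial release and caspase activation were tested. With SCH772984, 5 were higher and 7 lower, against 37.2% and 35.5% of all genes tested. The median log2 fold change of the 13 was -0.22. CYCS, which encodes cytochrome c, fell from 342 ± 12.0 to 128 ± 12.3 CPM (SD, n = 3), with a log2 fold change of -1.42 (SE 0.07, edgeR adjusted p = 3.32e-23). CASP9, the initiator caspase of the apoptosome, rose by 1.38 on the log2 scale and CASP6 by 1.15.

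Of 13 genes for partners and turnover of BCL2 family proteins, 3 were higher and 8 lower, against 37.2% and 35.5% of all genes tested. The median log2 fold change of the 13 was -0.41. They include 14-3-3 proteins, which hold BAD in the cytosol. SFN, the 14-3-3 sigma gene, rose from 9 to 14 counts with DMSO to 195 to 301 with SCH772984, a log2 fold change of 4.07 that rests on these low DMSO counts, since at levels like these SFN was under the filter with compound 1 and entered here through the SCH772984 libraries. YWHAH and YWHAB, other 14-3-3 genes, fell by 0.92 and 0.89. The only other higher genes of this list, named after their values were seen, were HUWE1 (0.24) and USP9X (0.75), a ubiquitin ligase and a deubiquitinase that act on MCL-1.

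Transcription factors known to act on BH3-only genes were 3 higher and 4 lower of 9 tested, against 37.2% and 35.5% of all genes tested. The median log2 fold change of the 9 was 0.20. FOXO4 rose by 2.39 on the log2 scale. The other two higher genes, named after their values were seen, were also FOXO factors, FOXO1 (1.33) and FOXO3 (1.28), which are known regulators of BCL2L11. JUN fell by 1.93 and E2F1 by 1.80. ATF4, a stress factor that acts on PMAIP1, named in the same way, was also lower (-1.29). These 6 factors had an edgeR adjusted p under 0.05, and RNA counts do not measure the activity of these proteins.

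Genes known as output of the MAPK pathway, which ERK closes, were mostly lower with SCH772984. Of 9 tested, 8 were lower and 1 higher, against 35.5% and 37.2% of all genes tested. The median log2 fold change over the 9 was -5.24. The log2 fold change was -6.82 for SPRY4 and -6.56 for ETV5, and DUSP6 went from 25 to 51 counts with DMSO to at most 1 with SCH772984. With SCH772984, ETV5 had 8 to 12 counts and ETV4, named after its values were seen, 4 to 10. DUSP6, ETV4 and ETV5 passed the filter on low counts only through the DMSO libraries, where they are high. A fall was bound to be found among genes let in this way, and it enters the count and the median. With compound 1 none of the 9 passed, and DUSP6 had 34 to 47 counts. No tested gene of any list passed with compound 1 (edgeR, Benjamini-Hochberg adjusted p under 0.05), where 0.864% of all genes tested passed.

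For the gene of each class with the highest level per kilobase with DMSO, the genes closest in pattern were sought among 10526 genes of at least 5 CPM on average, by the root-mean-square difference of log2 CPM after centring each gene on its own mean over the 9 libraries. Closest to MCL1 were SOCS6 (0.0446), SRP9 (0.0460) and CEP78 (0.0534). Closest to BAX were PREB (0.0496), CTDP1 (0.0562) and POLR2E (0.0575), and closest to BAD were ZNF580 (0.0814), ACOT8 (0.128) and ALKBH7 (0.137). A value of 0.0446 on the log2 scale means that the pair of genes differed by a few percent in a typical library. These are descriptions over 9 libraries that share groups and depth.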

How the data were processed

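RNA-Seq counts from 9 libraries of MIA PaCa-2 cells were used, grouped by the deposited labels. The authors deposited 1 table of unnormalized read counts per gene, made per the submitters' processing notes with HISAT2 2.0.5 and featureCounts 1.5.0-p3 on hg38; the role of each tool and the strand setting are not given in the sources used here. All 58735 genes matched GENCODE release 29, and 29048 had a count. Library totals of 9464432 to 13887859 set the counting error.

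Counts were tested with edgeR 4.0.16 (R 4.3.3, robust quasi-likelihood, TMM, filterByExpr with minimum count 10 and minimum total 15), 3 libraries against 3, two-sided, at a Benjamini-Hochberg adjusted p under 0.05 over all genes tested. Standard errors are the log2 fold change over the square root of F. CPM used TMM factors over all 9 libraries, and levels per kilobase used the gene lengths in the table. Ratios within libraries were compared by exact permutation (SciPy 1.17.1). Data were simulated with 200 altered genes (log2 change of 1 either way), and edgeR called 90.5% of the 179 tested for SCH772984 against DMSO and 85.2% of 196 for compound 1 against DMSO. Few genes changed in the simulation, whereas 72.8% passed in the data for SCH772984 against DMSO, so the 90.5% does not carry over to that comparison. Promoter windows of 9 of the 10 genes were found in the RefSeq table.

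The 10 genes, the lists and the alternatives were chosen with earlier results of these data known. Genes outside the 10 were named by rule, as the 3 called genes of each list with the largest absolute log2 fold change and the 3 closest patterns per class, with exceptions said where they occur. Some listed genes are not reported here. Alternatives were library size alone, RLE factors, every gene or those with a minimum of 10 counts in each library, a joint fit of the 9 libraries, a replicate block, an unadjusted p under 0.05, a 2-fold minimum, DESeq2 1.42.0, thinned libraries, each library left out, TPM for levels and raw counts for ratios.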

Additional observations from a re-analysis of the deposited data

How the results depend on the processing

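For single genes, 462 values of 29 results were computed under the alternatives, of which 439 kept their direction and side of the threshold, 18 kept their direction but no longer passed, 1 passed anew and 4 changed sign without passing. The 18 were the 2-fold requirement on BAD, BAX, BAK1, BCL2L1 and MCL1 against each control, the BAD values given above and BCL2L1 against compound 1 with library size alone. Requiring a change of at least 2-fold left 3 members higher and 2 lower with SCH772984 against either control. Over all genes it left 2523 higher and 1475 lower against DMSO and 2299 and 1399 against compound 1. The number of genes that passed with compound 1 over the whole table, 63 higher and 48 lower, depended on the setting. Higher and lower genes were 945 and 988 at an unadjusted p under 0.05, 7 and 0 with the 2-fold requirement, 189 and 228 without a filter and 117 and 119 with DESeq2. Lower genes were 25 with library size alone and 97 with all 9 libraries in one fit. Leaving out 1 library gave 5 to 453 higher, 3 to 798 lower and 0 to 1 members lower, the highest of each without compound 1 replicate 1. The cause was not tested. Leaving out 1 library also changed the sign of values near 0 with compound 1. Log2 fold changes ranged from -0.014 to 0.042 for BCL2L11, from -0.10 to 0.020 for BBC3 and from -0.19 to 0.076 for BCL2, and the log2 ratio difference from -0.018 to 0.22 for BBC3 per BCL2L1 and from -0.31 to 0.20 for BAX per BCL2.

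Deviations of same-numbered libraries correlated between -0.07 and 0.087. No strong shared shift was thus seen, but this cannot exclude that the libraries were paired. With a replicate block, compound 1 had 193 genes higher and 219 lower, SCH772984 against DMSO 5145 and 4926, and no member's call changed. Depth limited BMF most, at 2 to 7 counts outside SCH772984.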
